A study of Mus musculus with 12 samples.

Results

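The sirtuins are deacetylases and deacylases that need NAD to work. The mouse genome has 7 of them, Sirt1 to Sirt7, and all 7 were found by symbol among the 44345 gene rows of the RNA count tables. The samples were dorsal root ganglia of the lumbar levels L4 to L6 from C57BL/6 mice, 6 to 8 weeks old and killed 24 h after an axotomy of the dorsal columns. Mice received MS275, an inhibitor of class I histone deacetylases also known as entinostat, at 12 mg/kg, or its vehicle of Tween80, PEG300 and DMSO, into the abdomen. The first injection came at the time of injury and the last 2 h before death. No uninjured group was analysed here, so the vehicle ganglia were injured too. The 3 MS275 and 3 vehicle RNA libraries each pooled ganglia of 2 mice. Open chromatin was mapped by ATAC-seq, in which a transposase cuts accessible DNA, in 3 single mice per treatment, and 1 combined peak list per treatment was deposited. All cells of a ganglion went into each library, so neurons and non-neuronal cells were not separated.

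Class I deacetylases, which MS275 inhibits, are zinc enzymes. Sirtuins use another chemistry: they consume NAD to take an acetyl or longer acyl group off a lysine, and release nicotinamide, which inhibits them in turn. SIRT1, SIRT6 and SIRT7 act mainly in the nucleus, SIRT2 mainly in the cytoplasm, and SIRT3, SIRT4 and SIRT5 in mitochondria. In nerve tissue the NAD supply is also known for its role in axon survival, where the synthesising enzyme NMNAT2 protects axons and the NAD-cleaving enzyme SARM1 destroys them.

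The RNA libraries held 34992533 to 56542966 assigned reads with MS275 and 39148369 to 60370523 in vehicle. The tissue label matched its markers: the summed level of 9 sensory neuron genes was 11150 to 12428 CPM (read counts scaled to a common library size) with MS275 and 10924 to 11527 CPM in vehicle, with 0 of the 9 at zero. Summed markers of 3 other cell types were higher in each MS275 library than in each vehicle library. The summed level of 9 skeletal muscle genes was 690.8, 91.1 and 98.7 CPM in MS275 replicates 1, 2 and 3, and 15.3, 7.86 and 59.1 CPM in vehicle replicates 1, 2 and 3, and 8 of the 9 rose. That of 4 endothelial genes was 86.0 to 101.7 CPM with MS275 and 75.0 to 81.7 CPM in vehicle, and 2 of the 4 rose. That of 5 satellite glia genes was 1239 to 1288 CPM with MS275 and 1212 to 1220 CPM in vehicle, where 1 rose and 1 fell. Of the 9 sensory neuron genes, 1 rose. In these counts a gene rose or fell at an adjusted p under 0.05 in edgeR's quasi-likelihood test, described below. Over all genes tested, 5.10% were called higher and 5.89% lower. Sums for Schwann cells, macrophages, neutrophils and red cells overlapped between the groups, and no marker of these lists stood at 0 in every library. MS275 replicate 1 held the most neutrophil RNA, at 228.6 CPM against at most 64.8 CPM in any other library. It also held the most red cell RNA, at 385.4 CPM against at most 192.8 CPM. The part of these cell types in the sirtuin values was not tested beyond the comparisons given beside Sirt1 and Sirt4.

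The comparison of MS275 with vehicle asked whether transcripts of this second deacetylase family moved when the first was inhibited. Sirt1 fell (5.68 CPM with MS275 against 11.7 CPM in vehicle) and Sirt4 rose (8.06 against 5.92 CPM), while the other 5 sirtuins did not pass the test. Counts were tested over all 16819 genes that passed a filter on low counts with edgeR's quasi-likelihood test, and a gene was called when its Benjamini-Hochberg adjusted p was under 0.05. In that fit 11.0% of all genes were called, 5.10% higher and 5.89% lower, against 1 of 7 sirtuins higher and 1 of 7 lower. All 7 sirtuins passed the filter. The median log2 fold change of the 7 was 0.08, and that of all genes tested was 0.002. In whole ganglia fewer cells of a type and less RNA per cell cannot be told apart.

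**Figure D1:**
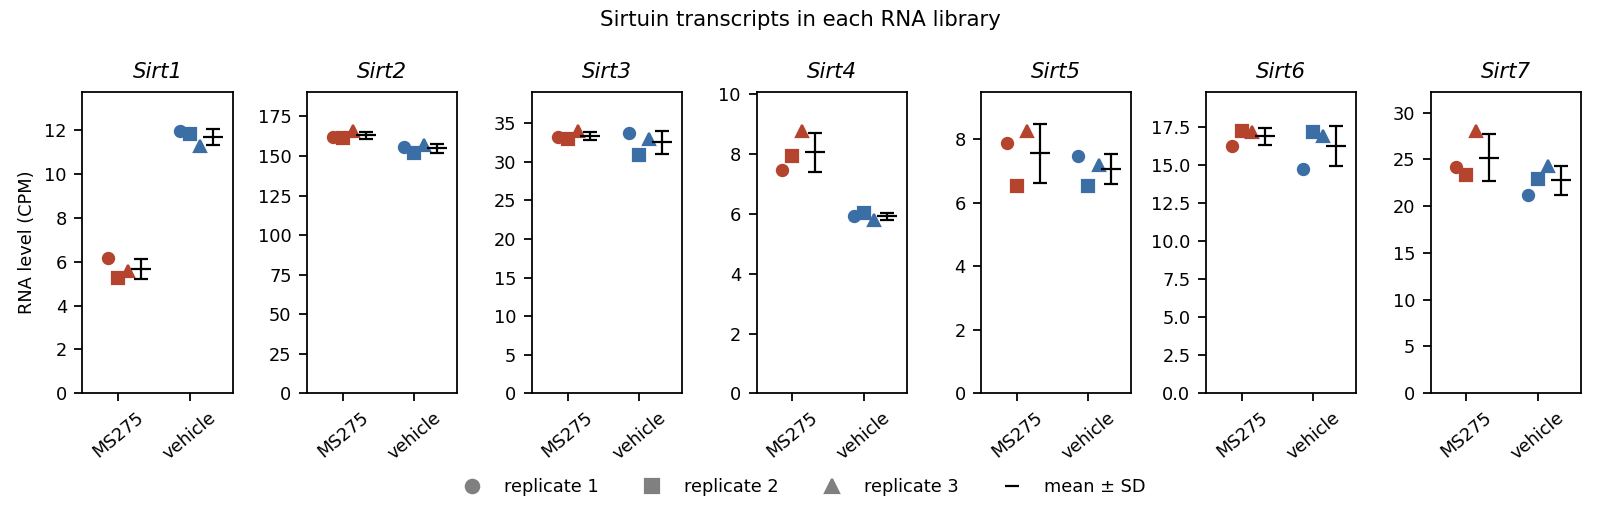
RNA level of each sirtuin (CPM, y axis from 0, a scale per gene) in the 3 MS275 and 3 vehicle libraries, with each library as a symbol and the mean ± SD beside them. For Sirt1 the 3 MS275 libraries lie between 5.28 and 6.17 CPM, all below the vehicle libraries, and for Sirt4 they lie between 7.48 and 8.78 CPM, all above them.

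Among the nuclear sirtuins, Sirt1 encodes the founding mammalian member, a deacetylase of transcription factors such as p53, FOXO proteins and NF-kappaB as well as of histones. Sirt1 had 295, 290 and 193 reads in MS275 replicates 1, 2 and 3, against 547, 723 and 447 reads in vehicle replicates 1, 2 and 3. Scaled to library size, this was 6.17, 5.28 and 5.59 CPM with MS275 and 12.0, 11.8 and 11.3 CPM in vehicle. The groups did not overlap, and the highest MS275 library lay well below the lowest vehicle library. Sirt1 averaged 5.68 ± 0.45 CPM with MS275 and 11.7 ± 0.37 CPM in vehicle (SD, n = 3 each). The log2 fold change was -1.04 (SE 0.09), a change of -51.5% with a 95% interval from -57.7% to -44.3%, and edgeR's quasi-likelihood test gave adjusted p = 0.00117. By unadjusted p it ranked 7 among the 16819 genes, and it was 1 of 16 called genes that fell by 2-fold or more. Counting error alone was 7.2% of the value in the shallowest library and 3.72% in the deepest.

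The Sirt1 value was as large without the library that held the most muscle, neutrophil and red cell RNA. Without MS275 replicate 1 the log2 fold change was -1.11 (SE 0.09), and with the summed muscle level as a covariate it was -1.11 (SE 0.15, edgeR's quasi-likelihood adjusted p = 0.0305). Muscle RNA moved with treatment, as MS275 replicates 2 and 3 still held 91.1 and 98.7 CPM, against 59.1 CPM or less in vehicle. Muscle content and treatment therefore cannot be told apart by these fits. Leaving out any other library gave values from -1.07 to -0.98, with an adjusted p of at most 0.0135 in edgeR's quasi-likelihood test. Of the reads assigned to the 7 sirtuin genes, Sirt1 took 2.40%, 2.07% and 2.09% in MS275 replicates 1, 2 and 3, against 4.77%, 4.795% and 4.42% in vehicle replicates 1, 2 and 3. The summed sirtuin reads overlapped between the groups, at 254.9 to 267.6 CPM with MS275 and 247.0 to 255.4 CPM in vehicle.

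The start of Sirt1 is shown here because it carried the strongest open region among the 7 genes while the transcript fell. Sirt1 lies on the minus strand of chromosome 10, from 63319005 to 63339035 in mm10 (GRCm38). Below are 250 bases before its annotated start to 50 after it, chr10:63338986-63339285 on the minus strand, from the RefSeq annotation of GRCm38.p6. Capitals mark GC boxes (GGGCGG on either strand) and E-boxes (CACGTG).

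Sirt1: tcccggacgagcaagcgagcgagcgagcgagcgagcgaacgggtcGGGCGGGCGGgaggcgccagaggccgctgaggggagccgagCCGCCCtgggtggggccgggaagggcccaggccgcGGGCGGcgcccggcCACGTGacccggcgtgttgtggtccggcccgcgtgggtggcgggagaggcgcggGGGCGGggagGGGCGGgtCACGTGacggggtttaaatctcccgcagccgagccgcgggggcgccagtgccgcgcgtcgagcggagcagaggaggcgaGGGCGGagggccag

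The window has 79.0% G and C, above 98.6% of the 32851 promoter windows of the same length in that table, whose median is 52.7%. It holds 7 GC boxes, of which those at -205 and -201 overlap, and E-boxes at -115 and -43, counted from the annotated start at position 0. At least 1 GC box is in 35.66% of all windows and an E-box in 7.15%. In the pooled ATAC lists the window lay inside an open region under both treatments. With MS275 the region was chr10:63338234-63339645, with a top fold enrichment of 5.02 and a top -log10 q of 59.3. In vehicle it was chr10:63338278-63339710, with 5.36 and 84.4. These are the authors' values per peak, scaled within each list, and were used mainly to describe a region within its own list. The exception, given below, is a cut at a -log10 q of at least 5 in both lists. That cut need not be equally strict in each list. Elsewhere in the gene each list had 1 region that the other lacked, with a -log10 q of 1.43 with MS275, at 8400 to 8776 bp from the start, and of 4.16 in vehicle, at 17715 to 17955 bp.

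The 2 neighbours of Sirt1 did not pass the test. Herc4, a ubiquitin ligase gene 1123 bp from the end of Sirt1, averaged 24.8 CPM with MS275 and 29.1 CPM in vehicle (log2 fold change -0.23, SE 0.07, edgeR's quasi-likelihood adjusted p = 0.0761). Dnajc12, a co-chaperone gene 43407 bp before its start, averaged 18.9 CPM with MS275 and 17.8 CPM in vehicle (log2 fold change 0.09, SE 0.06, edgeR's quasi-likelihood adjusted p = 0.411). The genes whose pattern over the 6 RNA libraries lay closest to that of Sirt1 were Slx4, Zfp472 and Suv420h1, out of 12477 compared. The measure was the root mean square difference of log2 CPM after each gene's mean was taken off, and it was 0.08, 0.10 and 0.11. Slx4 encodes a scaffold for DNA repair nucleases, Zfp472 a zinc finger protein and Suv420h1 a histone methyltransferase. Slx4 had 4.35, 3.84 and 3.68 CPM in MS275 replicates 1, 2 and 3, against 7.57, 8.01 and 8.25 CPM in vehicle replicates 1, 2 and 3. As these genes were picked for their likeness to Sirt1 in the same libraries, their fall follows from the choice.

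Sirt6 and Sirt7, the other nuclear members, overlapped between the groups. SIRT6 deacetylates histone H3 at telomeres and at glycolytic genes. Sirt6 had 16.3, 17.2 and 17.2 CPM in MS275 replicates 1, 2 and 3, against 14.7, 17.2 and 16.9 CPM in vehicle replicates 1, 2 and 3. Its log2 fold change was 0.05, with a 95% interval of the change from -7.79% to 16.95% (edgeR's quasi-likelihood adjusted p = 0.684). SIRT7 is found in the nucleolus and acts on histone H3 and on transcription of ribosomal RNA. Sirt7 had 24.2, 23.4 and 28.0 CPM in MS275 replicates 1, 2 and 3, against 21.2, 22.9 and 24.3 CPM in vehicle replicates 1, 2 and 3. MS275 replicate 3 was the highest of the 6, and the log2 fold change was 0.14, with an interval from -2.99% to 25.7% (edgeR's quasi-likelihood adjusted p = 0.291). Without that library the log2 fold change of Sirt7 was 0.07. A fall of the size seen in Sirt1 lay outside both intervals.

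Sirt2, the mainly cytoplasmic member, encodes a deacetylase of alpha-tubulin that is abundant in myelinating glia. It had 162.1, 161.7 and 165.8 CPM in MS275 replicates 1, 2 and 3, against 155.7, 151.7 and 157.1 CPM in vehicle replicates 1, 2 and 3. The groups did not overlap, but the gap was small: the log2 fold change was 0.08 (SE 0.04, 95% interval of the change from -0.64% to 11.8%), and edgeR's quasi-likelihood adjusted p was 0.222. Libraries of the groups did not overlap for 3 of the 7 sirtuins, Sirt1, Sirt2 and Sirt4, and for 33.8% of all genes tested, so such a gap by itself sets no sirtuin apart. Sirt2 is the sirtuin counted most deeply, at 5723 to 9258 reads per library, with a counting error of 1.04% to 1.32%.

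Among the mitochondrial sirtuins, Sirt4 rose. SIRT4 is known as an inhibitor of glutamate dehydrogenase and as a lipoamidase, and has little deacetylase activity. Sirt4 had 358, 436 and 303 reads in MS275 replicates 1, 2 and 3, against 271, 368 and 230 reads in vehicle replicates 1, 2 and 3. Scaled to library size, this was 7.48, 7.94 and 8.78 CPM with MS275 and 5.93, 6.03 and 5.80 CPM in vehicle. The groups did not overlap, and the MS275 libraries were more spread out than the vehicle libraries. Sirt4 averaged 8.06 ± 0.66 CPM with MS275 and 5.92 ± 0.11 CPM in vehicle (SD, n = 3 each). The log2 fold change was 0.44 (SE 0.09), a change of 35.9% with a 95% interval from 17.4% to 57.3%, and edgeR's quasi-likelihood adjusted p was 0.0201.

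The Sirt4 call depended on the libraries used. Leaving out MS275 replicate 3 gave a log2 fold change of 0.39, with adjusted p = 0.0571 in edgeR's quasi-likelihood test, and so ended the call. It was also lost when vehicle replicate 1, 2 or 3 was left out, at adjusted p of 0.0816, 0.0871 and 0.0721 in the same test. MS275 replicate 1 held the most muscle, neutrophil and red cell RNA. Without it Sirt4 still passed (log2 fold change 0.49, edgeR's quasi-likelihood adjusted p = 0.0126). The same held for MS275 replicate 2, at 0.46 and 0.0242. With the summed muscle level as a covariate the log2 fold change was 0.57, and edgeR's quasi-likelihood adjusted p was 0.152. As for Sirt1, these fits cannot tell muscle content and treatment apart. The genes closest to Sirt4 in pattern over the 6 libraries were Ror2, Nrarp and Irf2bpl, with root mean square differences of 0.04, 0.05 and 0.05. Ror2 encodes a Wnt receptor, and had 19.5, 19.8 and 23.8 CPM in MS275 replicates 1, 2 and 3, against 15.4, 15.6 and 15.3 CPM in vehicle replicates 1, 2 and 3. Its rise likewise follows from how it was picked.

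Sirt4 is annotated on chromosome 5 from 115478006 to 115490264, and its start in the RefSeq promoter table lies at 115484297 on the minus strand. The long RNA gene Gm42007 starts 153 bp away on the other strand and overlaps Sirt4. The libraries were strand-specific per the labels' protocols, but how the authors' counting treated strand is not known here, so reads of the overlap could be counted as Sirt4. Gm42007 matched no row of the counts. The same holds for Gm19897, which overlaps Sirt2, and for Mir6936, which overlaps Sirt7 and whose strand is not known here. Ric8a, which overlaps Sirt3, has a row of its own, as have the small nuclear RNA genes Gm24265 and Gm24407, which overlap Sirt4. How reads of these overlaps were assigned is not known. The window around the start, chr5:115484248-115484547 on the minus strand in GRCm38.p6, is shown beside that of Sirt1 because the transcripts moved in opposite directions.

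Sirt4: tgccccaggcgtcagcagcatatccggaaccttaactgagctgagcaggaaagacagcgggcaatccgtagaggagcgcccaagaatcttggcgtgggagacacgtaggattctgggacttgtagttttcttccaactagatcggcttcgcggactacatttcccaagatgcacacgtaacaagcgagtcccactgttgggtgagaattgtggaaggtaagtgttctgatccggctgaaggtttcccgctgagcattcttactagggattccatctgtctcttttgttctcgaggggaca

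It has 52.0% G and C and holds none of the 6 motifs searched, so it shows no capitals. The search covered both strands and, beside the GC box and the E-box, took the CCAAT box, the cAMP response element (TGACGTCA), an ETS core (CGGAAG) and an NRF1 core (CGCATGCG). An open region covered this window in both lists, chr5:115484131-115484713 with MS275 and chr5:115483990-115484998 in vehicle. A second region in both lists lay before that start, at the upstream end of the annotated gene. It had a top fold enrichment of 3.07 and -log10 q of 22.5 with MS275, and of 3.26 and 38.6 in vehicle. At the start the -log10 q was lower, at 18.2 with MS275 and 21.9 in vehicle. Gm24265 and Gm24407 also lie at the upstream end: the vehicle region covered both, and the MS275 region overlapped Gm24407. The start of Gm42007, at 115484450, lies inside the region at the Sirt4 start in both lists. Neither the region at the start nor the second region can thus be assigned to Sirt4 alone. On either side of the gene, Pla2g1b averaged 0.04 CPM with MS275 and 0.10 CPM in vehicle, and the pseudogene Gm13836 0.01 CPM with MS275 and 0 CPM in vehicle, too low to be tested.

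Sirt3 and Sirt5 overlapped between the groups. SIRT3 is the main deacetylase of mitochondria. Sirt3 had 33.2, 32.9 and 34.0 CPM in MS275 replicates 1, 2 and 3, against 33.8, 30.9 and 32.9 CPM in vehicle replicates 1, 2 and 3. Its log2 fold change was 0.04, with a 95% interval of the change from -5.60% to 11.6% (edgeR's quasi-likelihood adjusted p = 0.692). SIRT5 removes succinyl, malonyl and glutaryl groups. Sirt5 had 7.88, 6.52 and 8.25 CPM in MS275 replicates 1, 2 and 3, against 7.46, 6.54 and 7.19 CPM in vehicle replicates 1, 2 and 3. Replicate 2 was the lowest library in both groups, and the log2 fold change was 0.09, with an interval from -10.3% to 27.0% (edgeR's quasi-likelihood adjusted p = 0.621). At 285 to 399 reads per library, Sirt5 had a counting error of 5.01% to 5.92%, and a change as large as that of Sirt4 lay outside its interval.

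**Figure D2:**
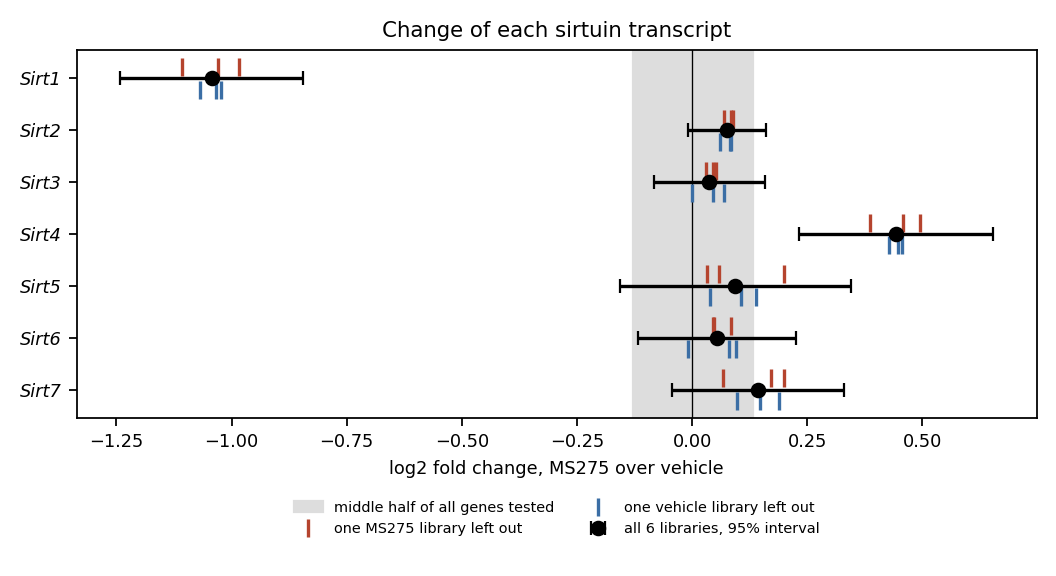
Log2 fold change of each sirtuin (x axis, MS275 over vehicle), with the 95% interval of the fit on all 6 libraries as a black bar and each fit with 1 library left out as a coloured tick, over a grey band from the lower to the upper quartile of all genes tested. Sirt1 lies between -1.11 and -0.98 and Sirt4 between 0.39 and 0.49 with a library left out, outside the band, whereas the intervals of the other 5 cross 0.

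All 7 genes had an open region at their start in both lists. A region lay within 1000 bp of an annotated start for 7 of 7 sirtuins in the MS275 list and 7 of 7 in the vehicle list, against 57.8% and 59.5% of the 27025 genes with a start in the RefSeq table, and 53.6% in both. Those shares include genes without RNA here, while all 7 sirtuins were expressed. The share among the genes tested for RNA was not computed. Regions at the starts of Sirt1, Sirt2 and Sirt3 had the highest -log10 q of the family in each list, at 59.3, 34.5 and 43.6 with MS275 and 84.4, 79.7 and 64.2 in vehicle. At the start of Sirt7 the MS275 list had 2 regions, with 6.38 and 1.79, and the vehicle list 1, with 20.4. Each list pools 3 mice, so no spread between mice is given for any region. The files give no ATAC read depth, so it is unknown.

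Some starts lie close to that of another gene, so the region there belongs to both. Gm42007, which matched no row of the counts, starts 153 bp from that of Sirt4. Psmd13, a proteasome subunit gene, starts 85 bp from an annotated start of Sirt3, and Nfkbib, an NF-kappaB inhibitor gene, 108 bp from that of Sirt2. Neither passed the test: Psmd13 averaged 134.2 CPM with MS275 and 122.8 CPM in vehicle (edgeR's quasi-likelihood adjusted p = 0.0569), and Nfkbib 25.7 CPM with MS275 and 25.1 CPM in vehicle (adjusted p = 0.815).

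**Figure D3:**
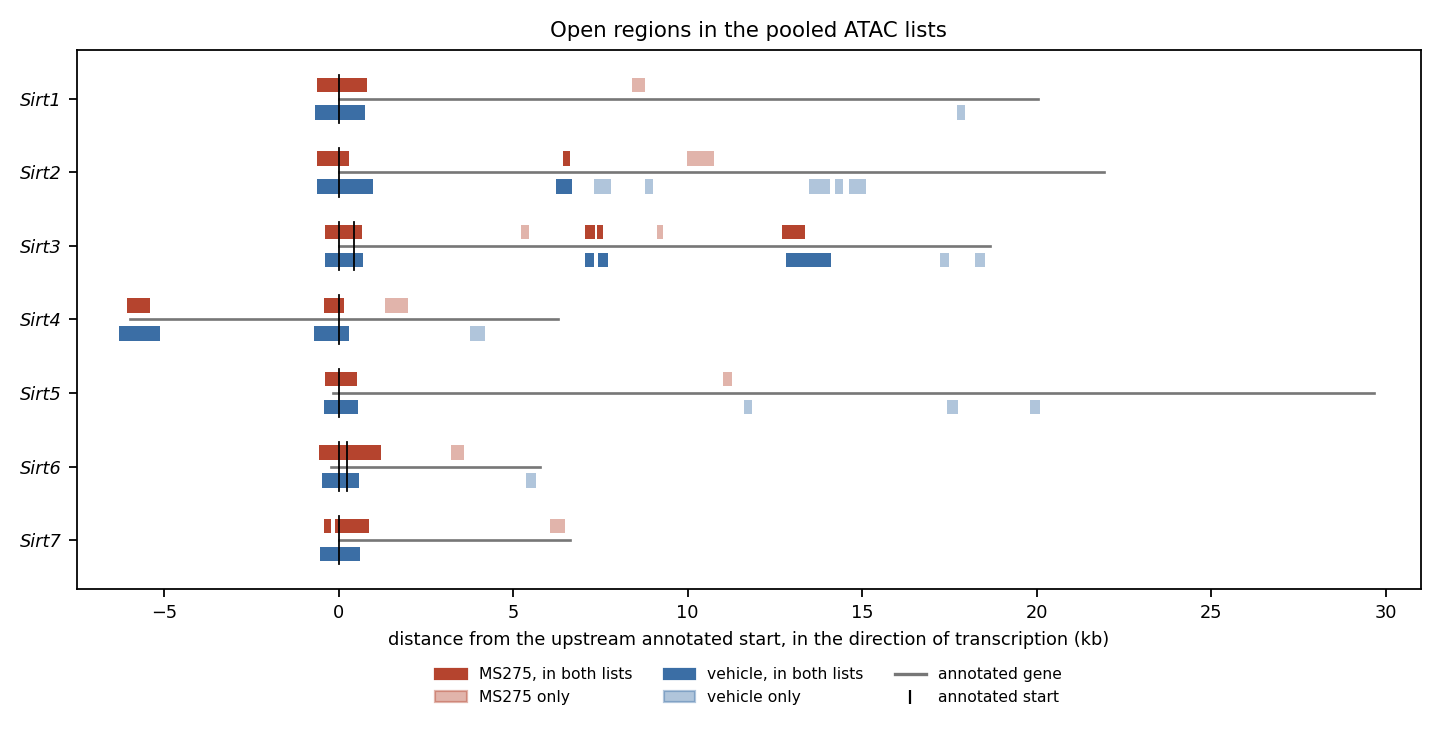
Merged open regions at the 7 genes in the pooled MS275 list (upper boxes) and vehicle list (lower boxes), along the distance from the upstream annotated start in kb, with pale boxes for regions in 1 list only. The boxes at the starts are present in both lists for each of the 7 genes, and the pale boxes lie inside the genes.

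Regions found in 1 list only lay away from the starts. Of 21 regions at the 7 genes in the MS275 list, 8 were absent from the vehicle list (38.1%, against 47.2% of all regions in that list). Of 25 regions in the vehicle list, 13 were absent from the MS275 list (52.0%, against 52.5%). All regions at the starts were in both lists, so away from them 8 of 13 regions were in the MS275 list only and 13 of 18 in the vehicle list only. The share over all regions away from gene starts was not computed, so these counts show no excess. Sirt2 held 5 of these 13, between 7318 and 15102 bp from its start. With a -log10 q of at least 5, 0 regions were in the MS275 list only and 1 in the vehicle list only, the Sirt2 region chr7:28774070-28774559, with a top fold enrichment of 1.92 and a -log10 q of 6.54.

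The 9 promoter windows of the 7 genes, with 2 each for Sirt3 and Sirt6, shared no motif throughout. A GC box was in 6 of the 9, against 35.66% of all windows, an ETS core in 3, against 16.85%, a CCAAT box in 3, against 37.41%, and an NRF1 core in 2, against 1.87%. The E-box was in the Sirt1 window alone among the 9, and the cAMP response element in 0 of them, against 1.79% of all windows. The 2 Sirt6 windows overlap each other. Shares among windows of like G and C content were not computed, so these counts show no excess.

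Nmnat2 was the called gene among those that make NAD, and Tnks among those that spend it. Of 15 tested genes of NAD synthesis and salvage, 1 rose and 0 fell, with a median log2 fold change of 0.02 against 0.002 over all genes. Over all genes 5.10% were called higher and 5.89% lower, so 1 call in a list of this size is near the background. Nmnat2 encodes the axonal NAD synthesis enzyme, and had 135.3, 139.0 and 137.1 CPM in MS275 replicates 1, 2 and 3, against 124.8, 123.5 and 121.5 CPM in vehicle replicates 1, 2 and 3. The groups did not overlap, but the change was small (log2 fold change 0.15, SE 0.04, edgeR's quasi-likelihood adjusted p = 0.0319). Nampt, which makes the precursor of NAD from nicotinamide, averaged 52.9 ± 5.27 CPM with MS275 and 56.1 ± 1.39 CPM in vehicle (SD, n = 3 each), and did not pass. Of 11 other NAD consumers and the nicotinamide methyltransferase, 0 rose and 1 fell, with a median of 0.08, again near the background. The one that fell was Tnks, the poly-ADP-ribose polymerase tankyrase, which averaged 69.2 ± 5.99 CPM with MS275 and 83.5 ± 5.27 CPM in vehicle (SD, n = 3 each; log2 fold change -0.27, SE 0.07, edgeR's quasi-likelihood adjusted p = 0.036). Sarm1 averaged 58.6 ± 5.20 CPM with MS275 and 63.9 ± 2.36 CPM in vehicle (SD, n = 3 each), with edgeR's quasi-likelihood adjusted p = 0.233.

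Of 11 tested genes for known regulators of SIRT1, 1 rose and 3 fell, against 5.10% and 5.89% of all genes, and the median log2 fold change was -0.10. Hic1, a repressor of Sirt1 transcription, rose: it had 5.35, 4.77 and 4.95 CPM in MS275 replicates 1, 2 and 3, against 3.35, 3.096 and 3.96 CPM in vehicle replicates 1, 2 and 3. All MS275 libraries lay above all vehicle libraries (log2 fold change 0.54, SE 0.13, edgeR's quasi-likelihood adjusted p = 0.0289). Those that fell encode modifiers of the SIRT1 protein: the ubiquitin ligase gene Smurf2 (log2 fold change -0.31, SE 0.07), the SUMO protease gene Senp1 (-0.34, SE 0.09) and the kinase gene Dyrk1a (-0.16, SE 0.04). Senp1 had 8.26, 8.30 and 7.47 CPM in MS275 replicates 1, 2 and 3, against 10.1, 10.8 and 9.61 CPM in vehicle replicates 1, 2 and 3. Elavl1, whose protein HuR binds the Sirt1 messenger RNA, averaged 34.5 CPM with MS275 and 38.7 CPM in vehicle and did not pass (edgeR's quasi-likelihood adjusted p = 0.133). In edgeR's quasi-likelihood test the adjusted p was 0.0199 for Smurf2, 0.0341 for Senp1 and 0.0451 for Dyrk1a. Dyrk1a lost its call in DESeq2 (adjusted p = 0.0553) and in limma voom (adjusted p = 0.0565). With the other normalisation or the looser filter in edgeR its call was lost too. Ccar2, a further regulator, was not analysed here.

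Among genes for sirtuin substrates, Ep300 and Rela fell and Acss1 and Idh2 rose. Called in either direction were 2 of 18 and 2 of 11 genes in their lists, against 11.0% of all genes. Of 18 genes for nuclear and cytosolic substrates, 0 rose and 2 fell (median -0.01). Ep300, the acetyltransferase p300, averaged 19.1 ± 1.81 CPM with MS275 and 31.2 ± 0.92 CPM in vehicle (SD, n = 3 each; log2 fold change -0.70, SE 0.07, edgeR's quasi-likelihood adjusted p = 0.0019). Rela, the NF-kappaB subunit p65, averaged 31.2 ± 1.16 CPM with MS275 and 37.1 ± 2.27 CPM in vehicle (SD, n = 3 each; log2 fold change -0.25, SE 0.06). Of 11 genes for mitochondrial substrates, 2 rose and 0 fell (median 0.003). They were Acss1, acetyl-CoA synthetase (log2 fold change 0.43, SE 0.08), and Idh2, isocitrate dehydrogenase (0.33, SE 0.08). Idh2 had 25.9, 21.1 and 22.6 CPM in MS275 replicates 1, 2 and 3. In vehicle replicates 1, 2 and 3 it had 18.5, 18.9 and 18.0 CPM. The library with most muscle, neutrophil and red cell RNA was also the highest for Idh2. Whether the lists differ was not tested.

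**Figure D4:**
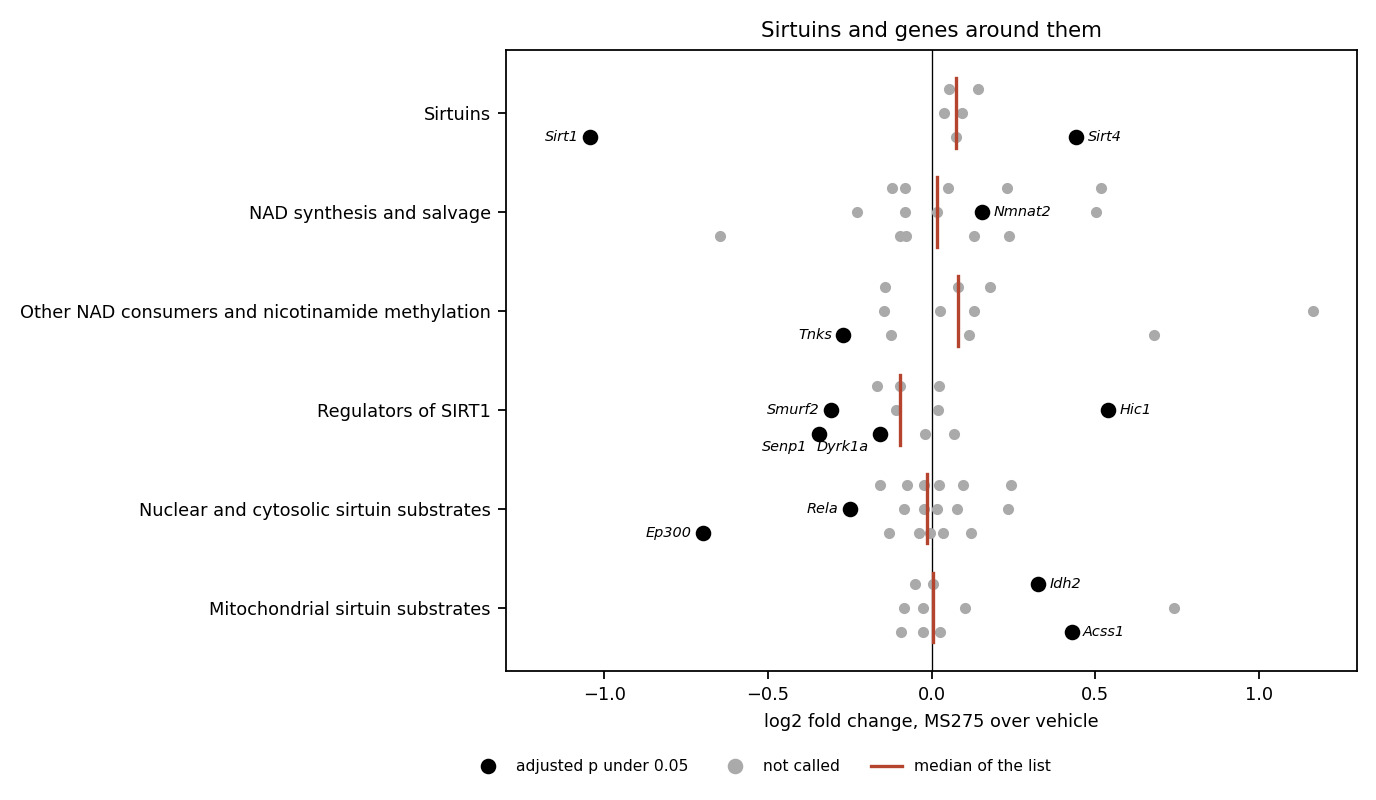
Log2 fold change (x axis, MS275 over vehicle) of the sirtuins and of each tested gene in the 5 lists around them, with called genes in black and named, others in grey, and the median of each list as a red line. Most genes lie near 0, and Sirt1 is the gene that fell most among those shown.

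These calls rested on the full set of libraries. Of the 10 called genes in the 5 lists, 1, 1 and 8 lost their call without MS275 replicate 1, 2 or 3, and 9, 9 and 7 without vehicle replicate 1, 2 or 3. Ep300 was called in each of these fits, as it was with the muscle covariate, under which the other 9 lost their call. With that covariate the log2 fold changes of Hic1 (0.28), Idh2 (0.19) and Tnks (-0.17) shrank by over 1.5 times. The other 6 kept values within 1.5 times of those above, such as 0.19 for Nmnat2, -0.26 for Rela and 0.38 for Acss1, with larger standard errors.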

How the data were processed

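Raw whole-number counts of reads, 1 file per RNA library with a row per gene symbol, were deposited by the authors. The submitters' processing notes name mm10, STAR 2.7.0, edgeR 3.24.3 and limma 3.38.3 without roles. The sources used here do not give the counting program or its strand setting. The 5 closing rows of each file, which name no gene and hold 18.9% to 20.6% of the reads, were dropped. For ATAC-seq, the authors deposited 1 list of combined peaks per treatment, whose columns by their layout are a score, a ratio (fold enrichment), the summit position and the -log10 q-value.

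The test was edgeR's 2-sided quasi-likelihood test (version 4.0.16, R 4.3.3) after filterByExpr and TMM, with treatment as the only term; the fit was checked on simulated counts. Standard errors are the log2 fold change over the square root of F, and 95% intervals use the fit's degrees of freedom. Counting error is 1 over the square root of the read count, and covers counting only. Profiles were compared on log2 CPM with a prior count of 2 among genes averaging at least 1. Overlapping peaks were merged within a list, counted as shared at 1 bp, and placed by RefSeq starts of GRCm38.p6, the assembly of mm10. All 7 genes matched that table. Samples were grouped by title; the series text calls the triplicates biological. Replicates differed by more than sampling noise (chi-square per degree of freedom 7.20 to 53.2).

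The members and lists were chosen with earlier results of these data known. Named genes were all 7 sirtuins, up to 5 called members per list by p, the 3 closest profiles to each called sirtuin, and its nearest annotated neighbours. Nampt, Sarm1, Elavl1, Psmd13 and Nfkbib were added for their role or position after values were seen. A gene of 1 list is not reported here and was left out of the counts. CPM are not per length, so levels are not compared between genes: transcript and protein lengths were not used here. Alternatives were the normalisation, the filter, the replicate block, each library left out, DESeq2 1.42.0 and limma 3.58.1 voom. Others were a fit without blood, muscle and mitochondrially encoded genes and a muscle covariate. For ATAC they were the q minimum, windows of 500 and 2500 bp and the overlap.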

Additional observations from a re-analysis of the deposited data

How the results depend on the processing

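Sirt1 stayed lower, with an adjusted p under 0.05, in each of the 13 alternative RNA fits, with log2 fold changes from -1.11 to -0.98. Sirt4 lost its call with the muscle covariate (0.57) and ranged from 0.39 to 0.49 with a library left out; sirtuins called higher then numbered 0 with the covariate and 0 to 1 with a library left out. Over the 5 lists, 4 higher and 6 lower genes became 0 and 1 with the covariate, and 0 to 5 higher and 1 to 6 lower with a library left out. DESeq2 and limma voom each gave 4 and 5. Sirt3, Sirt5 and Sirt6, never called, took a log2 fold change of -0.0002, -0.04 and -0.008 without vehicle replicate 2, with the covariate and without vehicle replicate 1. Over all genes, 858 higher and 991 lower became 25 and 8 with the covariate, which moves with treatment, and 127 to 1388 higher and 134 to 1375 lower with a library left out. With -log10 q of at least 5, regions in the MS275 list only numbered 0 in place of 8, and in the vehicle list only 1 in place of 13; the other ATAC settings left these and the counts at gene starts as they were. The cause of these changes was not tested.

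With the replicate number as a block, Sirt1 was -1.05 and Sirt4 0.44, and no sirtuin or list call changed. The labels do not say that equal numbers pair libraries, and deviations of same-numbered libraries correlated at 0.02, 0.11 and -0.06. Depth limits Sirt1, Sirt4 and Sirt5 most, with 193 to 723 reads per library.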
